A study of Mus musculus with 4 samples.

Results

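Germ cells use a set of genes that most other cells keep silent, and 42 of them were followed here in F9 embryonal carcinoma cells with and without a hairpin against Phf19. The members were all probe sets that the platform annotation pairs with exactly 1 of 42 named genes: germ cell regulators, meiotic chromosome and recombination proteins, the piRNA pathway and a few genes of spermatogenesis. The annotation gave 47 such probe sets for 39 of the genes, out of 45037 probe sets and 18193 genes measured. Nanos2, Nanos3 and Tdrd6 had no probe set under their symbol and were not analysed here. In all, 32 members had 1 probe set and 7 had several.

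The data are 4 Affymetrix mouse 430 2.0 arrays of total RNA. F9 is a mouse teratocarcinoma-derived line of undifferentiated, embryo-like cells. Cells of both groups had been infected with pLKO.1 lentivirus and selected with puromycin. The shPhf19 group (2 arrays) carried an shRNA against Phf19 and the shVector group (2 arrays) the vector control, each labelled as biological replicates 1 and 2. How many hairpins, infections or clones lie behind the replicates was not stated, so the p-values speak only to differences among these 4 arrays. PHF19 is a Polycomb-like protein that binds Polycomb repressive complex 2, a histone methyltransferase complex that keeps developmental genes silent.

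In the germ line, meiosis pairs homologous chromosomes along a protein scaffold, the synaptonemal complex, and exchanges DNA between them by programmed breaks and repair. The piRNA pathway, built from PIWI proteins, Tudor proteins and RNA helicases, silences transposons in the same cells. In pluripotent cells many of these genes are held down by DNA methylation and by a variant Polycomb complex that contains E2F6, MGA and MAX, and a few, such as Tex19.1, are active there.

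Promoter sequences were looked up for the members with a passing probe set, since the results turn on these genes, and for Mael and Sycp3, which did not pass and carry the searched letters. The table of RefSeq promoters (GRCm38.p6) held 36 of the 42 members; Dmrt1 and Tex15 were not among them. Each stretch below is the 250 bases before the annotated start, 5′ to 3′. Capitals mark CACGTG, the E-box bound by MAX with MGA, and GGCGGGA or its reverse complement TCCCGCC, an E2F-like site.
Ddx4, chr13:112652311-112652560, minus strand: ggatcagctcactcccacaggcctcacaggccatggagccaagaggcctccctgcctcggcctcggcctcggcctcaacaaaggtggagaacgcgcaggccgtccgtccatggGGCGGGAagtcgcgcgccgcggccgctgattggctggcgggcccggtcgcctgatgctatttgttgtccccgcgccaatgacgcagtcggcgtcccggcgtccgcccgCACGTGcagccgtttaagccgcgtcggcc
Meioc, chr11:102665335-102665584, plus strand: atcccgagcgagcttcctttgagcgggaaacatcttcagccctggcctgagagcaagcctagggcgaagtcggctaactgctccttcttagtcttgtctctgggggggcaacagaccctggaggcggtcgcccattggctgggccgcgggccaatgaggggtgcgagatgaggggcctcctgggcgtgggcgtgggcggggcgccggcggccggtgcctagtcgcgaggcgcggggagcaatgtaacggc
Dazl, chr17:50293621-50293870, minus strand: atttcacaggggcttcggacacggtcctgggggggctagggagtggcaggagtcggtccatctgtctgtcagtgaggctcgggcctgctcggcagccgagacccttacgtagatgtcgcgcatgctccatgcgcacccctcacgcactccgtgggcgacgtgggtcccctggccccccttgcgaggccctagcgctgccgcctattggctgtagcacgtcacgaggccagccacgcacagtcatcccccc
Tex19.1, chr11:121145893-121146142, plus strand: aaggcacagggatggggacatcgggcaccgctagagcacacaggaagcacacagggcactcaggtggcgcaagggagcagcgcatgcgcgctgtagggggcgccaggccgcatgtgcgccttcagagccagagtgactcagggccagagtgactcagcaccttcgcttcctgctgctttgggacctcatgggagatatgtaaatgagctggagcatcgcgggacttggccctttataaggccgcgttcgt
Tex14, chr11:87404815-87405064, plus strand: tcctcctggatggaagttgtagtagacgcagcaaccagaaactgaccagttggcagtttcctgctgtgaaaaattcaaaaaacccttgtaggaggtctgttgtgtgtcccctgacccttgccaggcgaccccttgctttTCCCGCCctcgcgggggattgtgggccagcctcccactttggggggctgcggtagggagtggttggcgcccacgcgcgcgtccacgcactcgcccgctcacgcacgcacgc
Mael, chr1:166238745-166238994, minus strand: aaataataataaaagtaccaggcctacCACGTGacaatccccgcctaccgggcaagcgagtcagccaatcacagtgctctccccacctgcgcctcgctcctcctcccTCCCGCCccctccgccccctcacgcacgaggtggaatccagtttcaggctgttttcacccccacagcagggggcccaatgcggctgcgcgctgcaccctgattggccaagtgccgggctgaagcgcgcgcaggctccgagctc
Sycp3, chr10:88459337-88459586, plus strand: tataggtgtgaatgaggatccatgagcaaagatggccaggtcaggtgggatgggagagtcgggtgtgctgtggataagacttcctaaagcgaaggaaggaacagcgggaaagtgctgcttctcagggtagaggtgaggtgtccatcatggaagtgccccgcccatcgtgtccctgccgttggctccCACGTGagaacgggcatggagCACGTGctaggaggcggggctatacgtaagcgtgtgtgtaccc
Ddx4 held both sets of letters, with CACGTG beginning 29 bases and GGCGGGA 137 bases before the start. Mael also held both, Sycp3 held CACGTG at 2 places, and Tex14 held TCCCGCC. Neither set of letters was in the Meioc, Dazl or Tex19.1 stretch. Only these exact letters were searched, so their absence does not mean that a stretch lacks other forms of an E2F site or E-box. The gene models of Meioc, Ddx4 and Tex14 reach 234, 323 and 52 bases further upstream than the starts used here, so other starts exist.

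Values are on the log2 scale, on which a difference of 1 is a doubling of signal. Groups were compared with limma across all 45037 probe sets, with Benjamini-Hochberg adjustment and a threshold of 0.05. A gene counts through its brightest single-gene probe set. Signals are not compared between genes, because probe sets differ in brightness for the same amount of RNA. The array medians lay between 5.75 and 5.76, and arrays correlated at 0.997 within shVector, 0.998 within shPhf19 and 0.996 to 0.997 between groups. Phf19 itself read 6.07 and 6.14 in shVector and 5.08 and 5.17 in shPhf19 with probe set 1427920_at (change -0.98 ± 0.10 SE, limma adjusted p = 0.0108). Its brighter probe set, 1431857_at, by which Phf19 would count here, overlapped between groups and did not pass (-0.06 ± 0.12, adjusted p = 0.928). All 12 embryonal carcinoma markers, Pou5f1, Sox2 and Nanog among them, had signals above the array median, and none passed the test. The smallest p were those of Nanog (-0.26 ± 0.05 SE, limma adjusted p = 0.0923) and Dppa4 (0.25 ± 0.06, adjusted p = 0.146). At an unadjusted limma p under 0.05, 4 markers were higher and 1 lower, 41.7% of them against 15.1% of all genes.

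Germ line genes split in direction after Phf19 knockdown. Of the 39 measured, 4 rose (Meioc, Ddx4, Dmrt1 and Tex15), 2 fell (Tex19.1 and Tex14) and 33 did not pass. Among all genes 1.15% rose and 0.863% fell (2.02% either way), against 10.3% and 5.13% of the members. By probe set, 5 of 47 rose and 2 fell, where 0.83% and 0.582% of all probe sets did (1.41% together); the fifth is a second probe set of Dazl. The median change of the 39 was 0.08, against -0.0028 over all genes, and 24 were above 0. The arrays of the groups did not overlap for 16 members that were higher and 8 that were lower in shPhf19, 41.0% and 20.5% of the members. Over all genes these shares were 21.3% and 22.2% (43.5% together). At an unadjusted p under 0.05 limma had 13 members higher and 5 lower, 46.2% of them. Over all genes 7.73% were higher and 7.35% lower at that level (15.1% together). The members were picked with earlier results of these arrays known, so the shares are descriptions.

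With any 1 array left out, limma called 0 probe sets in the whole table. The number at an unadjusted p under 0.05 was then 6942 (shVector replicate 1 missing), 5464 (shVector replicate 2), 2539 (shPhf19 replicate 1) or 2785 (shPhf19 replicate 2), against 5708 with all arrays. Members at that unadjusted level were then 11 higher and 4 lower in each of the first 3 cases, and 10 higher and 5 lower in the last. Each such fit leaves a group with a lone array, which is assumed to vary like the other group. It also has fewer residual degrees of freedom than the complete fit, and the part of this in the lost calls was not tested. The sign of the change stayed for each of the 18 probe sets printed by array here. Their arrays do not overlap between groups, so leaving 1 out could not change it.

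**Figure D1:**
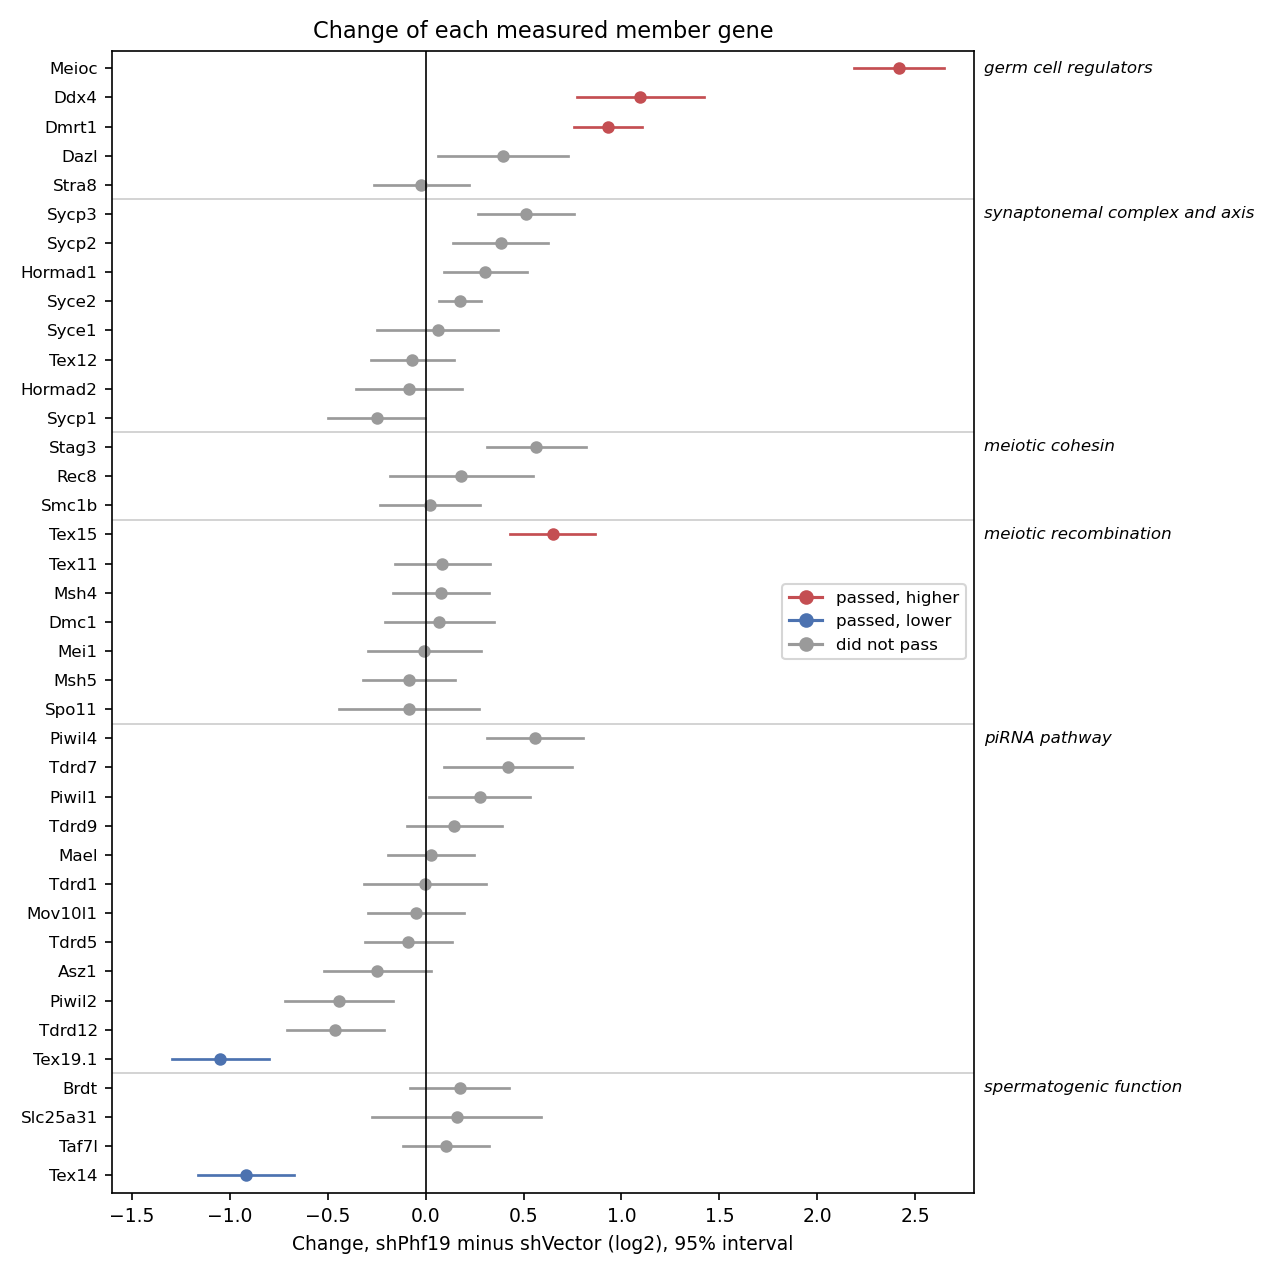
Change of the 39 measured members between shPhf19 and shVector (log2, horizontal axis), by role, with limma's 95% interval as bars; red and blue points passed the test and grey ones did not. The 4 rises are led by Meioc at 2.42, and the 2 falls, Tex19.1 and Tex14, lie at -1.05 and -0.92.

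Among the germ cell regulators, 3 of 5 measured rose, none fell and 2 did not pass. Meioc, whose product works with the helicase YTHDC2 to keep germ cells in meiotic prophase, read 5.63 and 5.76 in shVector and 8.16 and 8.06 in shPhf19. Both shPhf19 arrays were far above both controls, and the difference of 2.42 ± 0.10 (SE; 5.35-fold, limma adjusted p = 0.00147) was the largest rise of all 18193 genes. It ran from 2.35 to 2.48 with 1 array left out, with adjusted p from 0.0949 (without shVector replicate 1) over 0.114 (shVector replicate 2) and 0.554 (shPhf19 replicate 2) to 0.692 (shPhf19 replicate 1). In a bulk sample, more cells with the transcript and more transcript per cell cannot be told apart.

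Ddx4 encodes Vasa, the RNA helicase that marks germ cells and takes part in piRNA production. Its signal was 6.03 and 6.32 in shVector and 7.39 and 7.15 in shPhf19. The groups were separated by more than the gap between replicates, with a change of 1.10 ± 0.14 (SE; 2.14-fold, limma adjusted p = 0.0199). Without 1 array it lay between 0.95 and 1.24, with adjusted p between 0.138 and 0.782. Dmrt1, a transcription factor of testis and germ line, was already bright in control cells, at 8.88 and 8.95, and read 9.88 and 9.81 in shPhf19. Replicates of Dmrt1 lay within 0.1 of each other in both groups, and the rise was 0.93 ± 0.07 (SE; 1.91-fold, limma adjusted p = 0.00753). With an array missing the rise was 0.90 to 0.97 (adjusted p 0.0949 to 0.692).

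Dazl, an RNA-binding protein gene that activates translation in germ cells, gave unlike sizes with its probe sets. The brighter one, 1449502_at, stood at 5.33 and 4.997 in shVector and 5.65 and 5.46 in shPhf19, a change of 0.40 ± 0.14 (SE) that did not pass (limma adjusted p = 0.304). It was 0.23 without shVector replicate 2 and 0.56 without shVector replicate 1. The dimmer one, 1419542_at, read 3.58 and 4.01 against 5.36 and 4.87 and rose by 1.31 ± 0.20 (SE; 2.49-fold, limma adjusted p = 0.0392). Both had all shPhf19 values above the controls, but their 95% intervals, 0.06 to 0.73 and 0.83 to 1.80, did not meet. The call of 1419542_at was lost without an intensity trend in the variance (adjusted p = 0.0682) and with any array left out (0.196 to 0.804). Stra8, the retinoic acid-induced gene of meiotic entry, was at -0.02 ± 0.10 with overlapping arrays (95% interval -0.27 to 0.22).

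**Figure D2:**
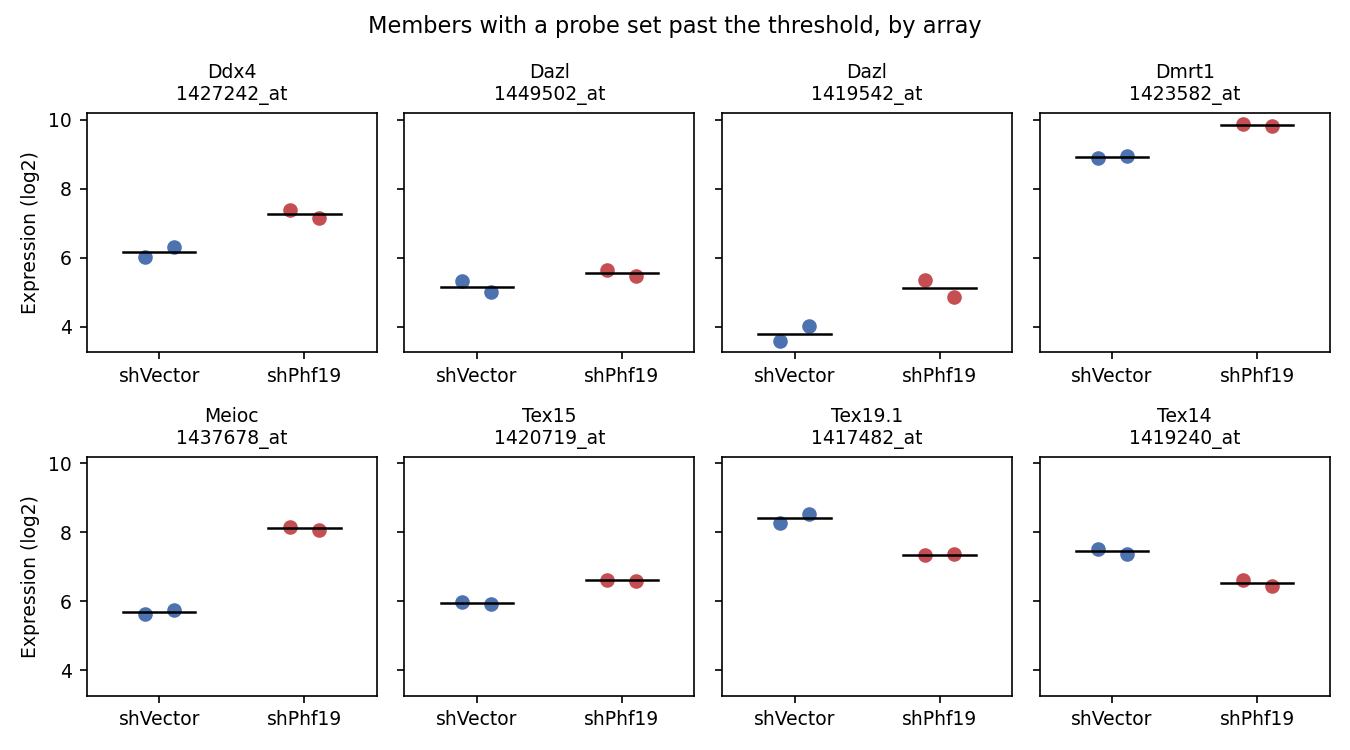
Signal (log2) of the 8 probe sets of members with a passing probe set, 1 point per array and a line at each group's mean. Both shPhf19 points lie above both shVector points in the panels of Ddx4, Dazl, Dmrt1, Meioc and Tex15, and below them for Tex19.1 and Tex14.

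None of the 8 genes of the synaptonemal complex and chromosome axis passed, and their median change was 0.12. Sycp3, which builds the axial element, read 4.93 and 5.01 in shVector and 5.41 and 5.56 in shPhf19 (change 0.51 ± 0.10 SE, limma adjusted p = 0.0838). Its partner Sycp2 read 3.71 and 3.89 against 4.17 and 4.20 (0.38 ± 0.10, adjusted p = 0.173). In both genes the shPhf19 arrays were the higher ones.

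Hormad1, which marks unsynapsed axes, stood at 3.54 and 3.52 in shVector and 3.83 and 3.85 in shPhf19 (0.31 ± 0.09 SE, limma adjusted p = 0.208). Syce2, a central element gene, read 12.34 and 12.32 against 12.50 and 12.51, a change of 0.18 ± 0.04 (adjusted p = 0.161) between replicates that nearly coincided. Sycp1, the transverse filament gene, was at -0.25 ± 0.10 (adjusted p = 0.391), and Syce1, Tex12 and Hormad2 lay between -0.08 and 0.06. Of these 8 genes, 5 had probe sets among the 25% with the lowest signals, where a reading may be background.

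None of the 3 cohesin subunit genes of meiosis passed. Stag3 came nearest, at 7.63 and 7.38 in shVector and 8.06 and 8.09 in shPhf19 (change 0.57 ± 0.11 SE, limma adjusted p = 0.0698). Its shPhf19 arrays were above both controls. It was called when the dimmest 50% of probe sets were left out (adjusted p = 0.0441). Rec8 (0.18 ± 0.15) and Smc1b (0.02 ± 0.11) had overlapping arrays.

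In meiotic recombination 1 of 7 genes rose. Tex15, needed to repair meiotic breaks and also tied to transposon silencing, read 5.99 and 5.91 in shVector and 6.61 and 6.59 in shPhf19. The groups lay well apart, with a change of 0.65 ± 0.09 (SE; 1.57-fold, limma adjusted p = 0.0296). Without 1 array it was 0.61 to 0.69 (adjusted p 0.129 to 0.792), and when shVector replicate 1 was blocked with shPhf19 replicate 2 and the reverse, a choice made after seeing the data, the adjusted p was 0.0552. The other 6 were Spo11, which makes the breaks, the recombinase gene Dmc1, the crossover genes Msh4, Msh5 and Tex11, and Mei1, needed for break formation. Their changes ran from -0.09 to 0.08, all with overlapping arrays, and their 95% intervals together from -0.44 to 0.35. The second probe sets of Dmc1 (0.16 ± 0.12) and Msh5 (-0.04 ± 0.10) did not pass either.

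The genes grouped here under the piRNA pathway held changes of both signs, with 1 of 12 falling, none rising and a median of -0.03. The gene that fell was Tex19.1, and the 11 PIWI, Tudor and other genes of the group did not pass. Tex19.1, a gene of pluripotent and germ cells that restrains retrotransposons, read 8.28 and 8.52 in shVector and 7.33 and 7.37 in shPhf19. Both shPhf19 arrays were clearly lower, a change of -1.05 ± 0.10 (SE; 2.07-fold lower, limma adjusted p = 0.0112). With 1 array left out it ran from -1.17 to -0.93 (adjusted p 0.0949 to 0.761).

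Tdrd12, a Tudor protein gene of secondary piRNA production, read 7.32 and 7.18 in shVector and 6.87 and 6.71 in shPhf19 (-0.46 ± 0.10 SE, limma adjusted p = 0.115). Piwil2, which encodes the PIWI protein MILI, was at 6.66 and 6.40 against 6.04 and 6.13 (-0.44 ± 0.11, adjusted p = 0.164). Both had lower shPhf19 arrays without passing. The other PIWI genes lay above 0. Piwil1 (MIWI) read 6.24 and 6.24 in shVector and 6.40 and 6.63 in shPhf19 (0.28 ± 0.11, adjusted p = 0.355), and its change was 0.16 without shPhf19 replicate 2 and 0.39 without shPhf19 replicate 1. Piwil4, which encodes MIWI2, the nuclear PIWI protein, read 2.82 and 2.92 against 3.52 and 3.34 with probe set 1447564_x_at (0.56 ± 0.10, adjusted p = 0.0654). That reading passed under quantile normalization (adjusted p = 0.0438). It is close to the lowest signals on the arrays, the suffix allows hybridisation to related transcripts, and the second Piwil4 probe set, 1439716_at, was at 0.08 ± 0.11.

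Tdrd7, another Tudor protein gene, read 5.11 and 5.35 in shVector and 5.79 and 5.52 in shPhf19 (0.42 ± 0.14 SE, limma adjusted p = 0.26), while its dimmer probe set was at 0.09 ± 0.11. Its shPhf19 arrays were above the controls with the first probe set only. The remaining 6 genes, Mael, Tdrd1, Tdrd5, Tdrd9, the helicase gene Mov10l1 and Asz1, ranged from -0.25 to 0.15. Among the 4 genes of spermatogenic function, Tex14 fell and 3 did not pass. Tex14, required for the intercellular bridges that join germ cells, read 7.52 and 7.38 in shVector and 6.61 and 6.45 in shPhf19, a change of -0.92 ± 0.10 (SE; 1.89-fold lower, limma adjusted p = 0.0155). Its arrays were separated by far more than the replicate gaps, and without 1 array the change ran from -0.99 to -0.84 (adjusted p 0.129 to 0.692). The testis bromodomain gene Brdt (0.17 ± 0.10), the germ cell ADP/ATP carrier gene Slc25a31 (0.16 ± 0.18) and Taf7l, a germ cell relative of a general transcription factor (0.10 ± 0.09), did not pass. The other Brdt probe sets were at -0.08 ± 0.09 and -0.07 ± 0.09.

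The 22 members not printed by array had changes from -0.25 to 0.18, 11 on either side of 0, and 1 of them, Sycp1, had an unadjusted p under 0.05. By its mean over the 4 arrays, the probe set was below the median of all probe sets in 23 of 39 members, against 7009 of all 18193 genes. It was among the lowest 25% in 14 of 39 members, against 3112 of 18193 genes. Members were thus dim more often than genes at large. The part of low signal in the uncalled members was not tested.

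**Figure D3:**
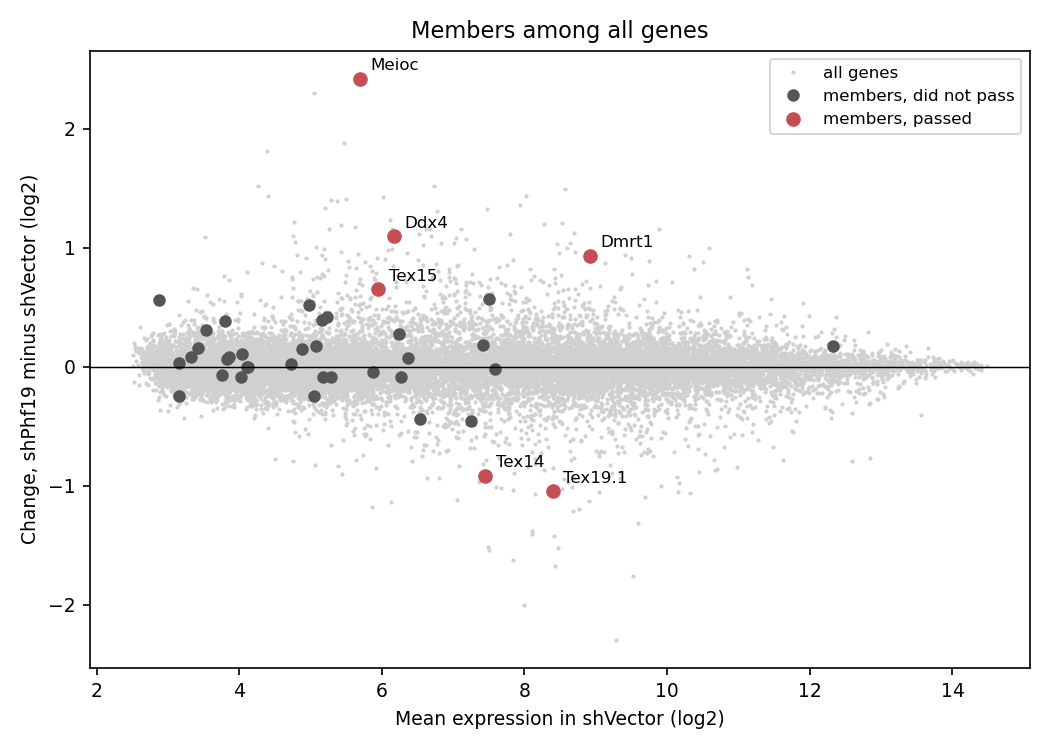
Change (log2) against mean shVector signal (log2) for all 18193 genes in light grey, with the members as larger points, red where they passed. The 6 called members sit at control signals from 5.69 for Meioc to 8.91 for Dmrt1, while many uncalled members lie at the dim end.

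Across promoters, the members carried the E-box letters more often than promoters at large. Of 44 promoter windows of 300 bases (250 before and 50 after the start) belonging to 36 members, 17 held CACGTG, 38.6% against 7.15% of 32851 windows in the table. GGCGGGA on either strand was in 9 windows, 20.5% against 11.3%. Member windows were also richer in CpG, with a median ratio of observed to expected CpG of 0.708 against 0.384. Among windows with a ratio of at least 0.6, a limit set after seeing the data, CACGTG was in 15 of 27 member windows (55.6%) and in 11.3% of all 11765, and GGCGGGA in 33.3% and 25.1%. Windows of 1 gene can overlap, and 7 member windows held both sets of letters, which were counted separately. A match of letters is a description and shows no binding.

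Among the 34 measured members in the promoter table, which leave out the called genes Dmrt1 and Tex15, called genes were found both with and without CACGTG. Of 15 measured members with CACGTG, 1 rose (Ddx4), none fell and 14 did not pass, with a median change of 0.16. Of 19 without it, 1 rose (Meioc), 2 fell (Tex19.1 and Tex14) and 16 did not pass, with a median of 0.02. Mael, whose printed promoter holds both sets of letters as that of Ddx4 does, was at 0.03 ± 0.09 and read 3.12 to 3.23 over the arrays, near the bottom of the scale. Sycp3, with CACGTG at 2 places, is described above.

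Genes whose products are known to help silence germ line genes were measured in the same fit. Of 25, 3 rose, 2 fell and 20 did not pass. These were 12% and 8%, against 1.15% and 0.863% of all genes. The list was bright, with 24 of 25 above the median of all probe sets, against 11184 of 18193 genes. Of the 367 genes called in all, 344 lay above that median. E2f6, which encodes a DNA-binding subunit of the variant Polycomb complex, rose 1.46-fold (log2 change 0.55 ± 0.08 SE, limma adjusted p = 0.0321), although its dimmer probe set was at 0.04 ± 0.09. Tfdp1, which encodes a dimer partner of E2F proteins, fell 1.73-fold. Dnmt3l, a cofactor of new DNA methylation, rose 1.84-fold and Dnmt3b 1.22-fold. The maintenance methyltransferase gene Dnmt1 fell by 0.38 ± 0.06 on the log2 scale with 1435122_x_at, whose suffix allows hybridisation to related transcripts. The other Dnmt1 probe sets, at -0.33 ± 0.06 and -0.41 ± 0.09, did not pass (limma adjusted p = 0.0816 and 0.1005). Nor did the second one of Dnmt3b, at 0.335 ± 0.06 (adjusted p = 0.0595). The brightest probe set of Dnmt3a did not pass (0.48 ± 0.12), but another, 1423064_at, rose by 0.59 ± 0.09 (limma adjusted p = 0.04), and its 5 probe sets lay between 0.39 and 0.59. Among further genes of that complex, Mga (0.06 ± 0.06), Max (0.04 ± 0.08), L3mbtl2 (-0.01 ± 0.07) and Pcgf6 (-0.10 ± 0.07), named after their values were seen, did not pass. They are not all the partners of E2F6, and Tfdp1, the dimer partner gene named above, fell.

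A second list held germ line genes outside the members. Of its 34 measured, none rose by the brightest probe set and 1 fell, 0% and 2.94% against 1.15% and 0.863% of all genes. Tfap2c, a transcription factor of primordial germ cells, fell 1.81-fold (-0.85 ± 0.10 SE, limma adjusted p = 0.0177), with another of its probe sets also passing. A second probe set of the testis kinase gene Stk31, 1425317_x_at, rose by 0.78 ± 0.10, whereas its brightest was at 0.94 ± 0.20 without passing (adjusted p = 0.0989). The median of these 34 was 0.01. Their unadjusted limma p was under 0.05 for 6 that were higher and 9 that were lower, 44.1% of them. That share was 46.2% for the members and 15.1% over all genes (7.73% higher and 7.35% lower). None of 16 spermatid genes passed (median -0.0026; Hspa1l 0.16 ± 0.09 and Odf1 0.17 ± 0.11 had the smallest p), nor did any of 9 oocyte genes (Zp3 0.34 ± 0.13, Nlrp14 0.20 ± 0.13).

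Markers of other cell types were read beside these genes. Among 13 markers of somatic gonad cells none passed by the brightest probe set, and their mean signal was 5.92 and 5.97 in shVector and 5.98 and 5.98 in shPhf19. Within this list Cyp11a1, the steroidogenic side-chain cleavage enzyme gene, was at 0.71 ± 0.16 and Wt1 at 0.99 ± 0.25, and a second Cyp11a1 probe set rose by 0.99 ± 0.10 (limma adjusted p = 0.0115). Most of the list lay on the other side, with 9 of 13 genes below 0 and a median change of -0.11. The arrays of the groups did not overlap for 7 that were lower and 2 that were higher in shPhf19. These were 53.8% and 15.4% of the list, against 22.2% and 21.3% of all genes. None of 12 fibroblast markers passed, with mean signals of 4.58 and 4.57 in shVector and 4.50 and 4.46 in shPhf19 (Pdgfrb -0.68 ± 0.14, Thy1 0.46 ± 0.12). By comparison, the mean over the 39 members was 5.46 and 5.44 in shVector and 5.59 and 5.61 in shPhf19. The part of these cell types in the members' changes was not tested.

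**Figure D4:**
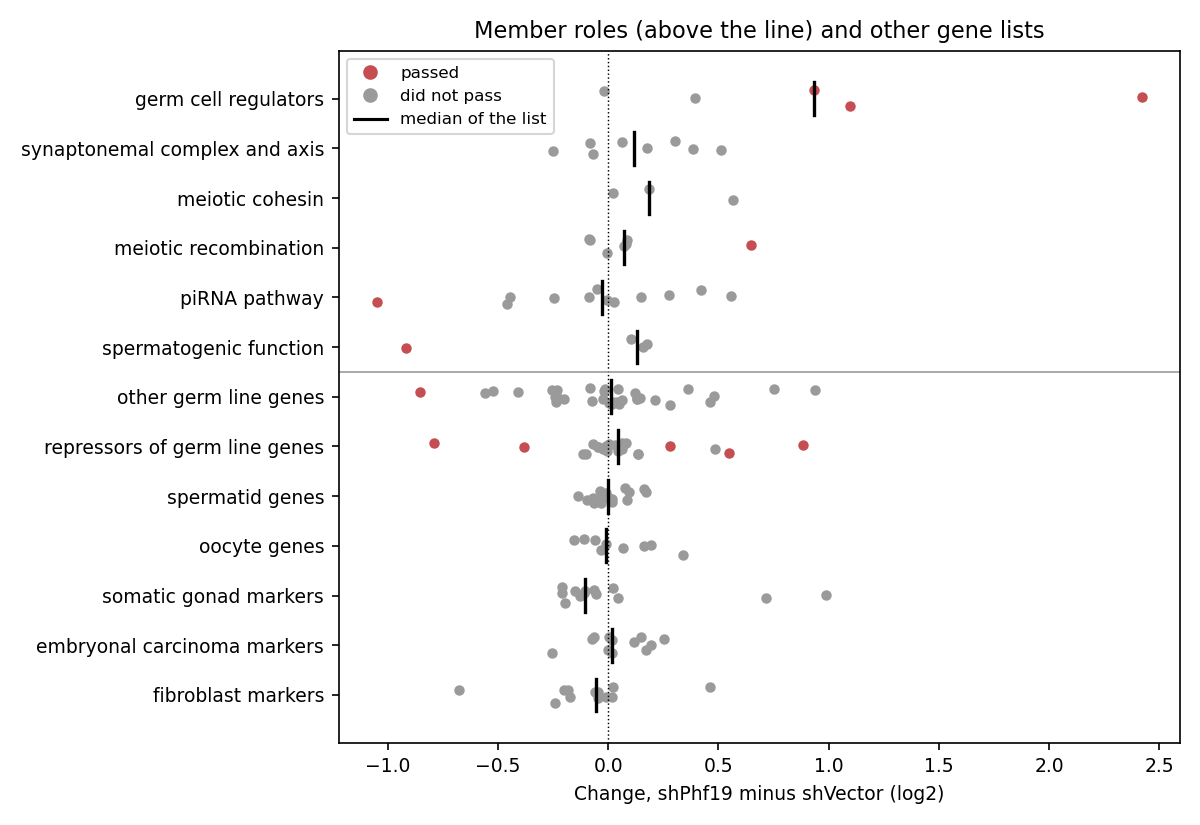
Change between shPhf19 and shVector (log2, horizontal axis) of each gene in the 6 member roles, above the grey line, and in 7 other lists; red points passed the test, and black bars are medians. The germ cell regulators have a median of 0.93, and the spermatid and oocyte genes cluster around 0 with no passing gene.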

How the data were processed

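Total RNA of 4 F9 cultures (2 shVector, 2 shPhf19) was labelled with biotin and hybridised to Affymetrix arrays, per the labels' protocols. The authors deposited 1 log2 value per probe set and array. That scale was read from the values, which reach 14.5, and software, background correction and summary method are not given in the sources used; such summaries can compress changes of dim probe sets. Whether and how the arrays were normalized before deposit is not given there either; their medians nearly coincide. No detection calls were used.

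After 64 control probe sets were left out, 45037 were fitted with limma 3.58.1 in R 4.3.3 (lmFit, eBayes with intensity trend, two-sided, Benjamini-Hochberg, threshold 0.05), without a filter. The fit has 2 residual degrees of freedom. Platform annotation gave 1 gene for 34945 probe sets, several for 932 and none listed for 9160. SE and 95% intervals are limma's moderated ones. The procedure was run on data simulated with known changes, independent arrays and variances drawn from limma's own fit. Such data meet limma's assumptions by design, so they cannot show whether the 4 real arrays do. The number of arrays limits the precision.

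Members and gene lists were chosen with earlier results of these data known. Printed by array are members with a passing probe set and the 10 further members with the smallest p; from the other lists, passing genes, or the 2 with the smallest p. Alternatives were the replicate number as a block, median centring, quantile normalization, leaving out the dimmest 25% or 50% of probe sets, no intensity trend, the mean of a gene's probe sets, and each array left out. Promoter letters came from RefSeq promoters of GRCm38.p6.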

Additional observations from a re-analysis of the deposited data

How the results depend on the processing

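In 188 comparisons of the 18 printed probe sets with an alternative setting, none changed sign, but most of these settings could not change it. Blocks, the trend and the filters leave the size of the change as it is. The arrays of the groups did not overlap for these probe sets, so leaving 1 array out keeps the sign. Only median centring and quantile normalization could have moved it. Calls depended on the spread estimate, and a block or a missing array also leaves fewer residual degrees of freedom than the main fit. With the replicate number as a block, limma called 0 probe sets either way (3890 had an unadjusted p under 0.05), hence 0 member probe sets and 0 member genes, and the 7 called member probe sets had adjusted p from 0.203 to 0.324. No label ties the numbers to a shared batch, and deviations of same-numbered arrays correlated at -0.197. A block of crossed numbers, chosen after seeing the data, gave 337 higher and 259 lower probe sets, and 3 member genes higher (not Tex15) and 2 lower. With 1 array left out, every count of calls was 0, against 374 higher and 262 lower probe sets in the complete data, and the members' median change ran from 0.071 to 0.14. Without an intensity trend, 229 probe sets were higher and 151 lower, and 4 member genes rose and 2 fell. Averaging a gene's probe sets, with 18193 genes tested in place of 45037 probe sets, called 7 member genes higher and 3 lower. Dazl, Sycp3 and Stag3 joined the rises and Tdrd12 the falls. Calls also grew over all genes in that setting, to 550 of 18193 from 367 by the brightest probe set. Without the dimmest 25% and 50% of probe sets the median change was 0.15 and 0.12, over the 25 and 16 members then left to test. Median centring and quantile normalization kept the member gene counts at 4 or 5 higher and 2 lower, while 736 and 856 of all probe sets were called, against 636 as reported. With the 250 bases before the start only, 15 members held CACGTG and 7 GGCGGGA, against 15 and 8. For 14 of the 39 members the signal was among the lowest 25% of probe sets, where a reading may be background.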

Other observations

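In the list of 34 germ line genes outside the members, 44.1% had an unadjusted limma p under 0.05, against 15.1% of all genes. Of these, 6 were higher and 9 lower in shPhf19. They are named here after their values were seen, and Tfap2c was the 1 gene among them that passed by its brightest probe set. The lower ones were, besides Tfap2c, Prdm1 (change -0.56 ± 0.10 SE, adjusted p = 0.0621) and Prdm14 (-0.41 ± 0.08, adjusted p = 0.0689), which encode transcription factors of primordial germ cells, Mei4 of meiotic break formation (-0.52 ± 0.09, adjusted p = 0.0616), the receptor gene Kit (-0.24 ± 0.10), the piRNA pathway gene Pld6 (-0.23 ± 0.08), Ccnb1ip1 (-0.23 ± 0.08), Prdm9 (-0.24 ± 0.09) and Dnd1 (-0.23 ± 0.08). The higher ones were Dppa3 (0.46 ± 0.11, adjusted p = 0.121), Ddx25 (0.28 ± 0.10), the piRNA pathway genes Rnf17 (0.75 ± 0.15, adjusted p = 0.0833) and Tdrkh (0.48 ± 0.10, adjusted p = 0.106), Hsf2bp (0.36 ± 0.08) and Stk31 (0.94 ± 0.20). The piRNA pathway genes Gtsf1 (-0.20 ± 0.13, adjusted p = 0.626) and Henmt1 (0.12 ± 0.10, adjusted p = 0.729), also in the list, did not reach that level. Of the 34, 18 were above 0 and 16 below.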
